A study of Homo sapiens with 20 samples.

Results

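RUNX1 binding was examined around 10 genes that encode transcription factors of blood stem cells and of the erythroid and megakaryocytic lineages: GATA2, GATA1, TAL1, LMO2, LYL1, GFI1, GFI1B, ZFPM1, KLF1 and NFE2. All peaks within 50 kb of the RefSeq span of one of these genes were taken, which gave 27 of the 26642 peaks of the count table, at 9 of the 10 genes. GATA1 had no peak in its window, and the nearest one lay 102151 bp away. Within these windows no binding values were used to take a peak, but the 10 genes were chosen with earlier results of these data known. Peaks were assigned by distance alone, and for 19 of the 27 the nearest protein-coding gene was not one of the 10. The question addressed was whether RUNX1 moves toward programmes that oppose PU.1 when PU.1 is lowered.

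All libraries came from THP-1, a long-established cell line of human acute monocytic leukemia. The control group carried a scramble shRNA and the knockdown group an shRNA against PU.1, both in cassettes induced by adding doxycycline to the medium, and both groups therefore received the inducer. Chromatin was immunoprecipitated with an antibody against RUNX1 and sequenced (ChIP-seq). Each group had 6 RUNX1 libraries, made in 2 experimental rounds that the labels call batches. Of the control libraries, 3 belong to batch 1 and 3 to batch 2, and of the knockdown libraries 2 belong to batch 1 and 4 to batch 2. The assay measures binding and no transcripts, so neither the level of PU.1 nor markers of the cell type could be checked in these libraries. One parental cell line stands for the condition, and control and knockdown cells carry different shRNA cassettes. Any other difference between the control and knockdown lines cannot be told apart from the knockdown.

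As background, GATA2 maintains stem and progenitor cells and GATA1 drives red cell and platelet formation. TAL1 and LYL1 are related basic helix-loop-helix factors that bind DNA together with E proteins. LMO2 bridges TAL1 and LYL1 to GATA factors in complexes that also hold LDB1. ZFPM1 (FOG1) is a cofactor of GATA1, GFI1 and GFI1B are repressors that recruit histone demethylase and deacetylase complexes, KLF1 activates globin and other red cell genes, and NFE2 is required for platelet production and binds globin enhancers. PU.1 promotes the myeloid fate and antagonises GATA1, while RUNX1 occupies many regulatory regions of blood cells together with these factors.

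Promoter windows of 300 bases (250 before and 50 after an annotated start, RefSeq, GRCh38.p14) were given for 8 of the 10 genes, LMO2 and NFE2 being without an entry. RUNX1 peaks covered own promoter windows of 2 of these 8 genes, GATA2 and TAL1. These sequences are shown because RUNX1 sat there directly at a given start of a listed gene. Whether a peak covered a start of LMO2 or NFE2 could not be read. RUNX letters (TGTGGT or TGCGGT, searched on both strands) were present in 19.6% of 35116 promoter windows, GATA letters (AGATAA) in 10.3% and PU.1 letters (GAGGAAGT) in 2.59%. The window at the inner TAL1 start held 4 RUNX matches, a number reached by 13 of all windows (0.037%), and this window was singled out after the matches were counted. The 30 bases around each match, read on the minus strand of the TAL1 gene, follow with the RUNX letters in capitals.
TAL1 inner start, chr1:47231886-47231915: aatgcgcgaggcTGTGGTtggttttcattt
TAL1 inner start, chr1:47231848-47231877: tggttgtgtgcaTGCGGTgggattgtgaga
TAL1 inner start, chr1:47231788-47231817: gctgcttctaagTGTGGTcttcttggcgac
TAL1 inner start, chr1:47231754-47231783: tctgtgtccgagTGTGGTgtgcctgcgcgg
The 250 bases before the outer TAL1 start held no RUNX match and 1 GATA match, which reads TTATCT on the printed minus strand and is in capitals.
TAL1 outer start, chr1:47232336-47232585: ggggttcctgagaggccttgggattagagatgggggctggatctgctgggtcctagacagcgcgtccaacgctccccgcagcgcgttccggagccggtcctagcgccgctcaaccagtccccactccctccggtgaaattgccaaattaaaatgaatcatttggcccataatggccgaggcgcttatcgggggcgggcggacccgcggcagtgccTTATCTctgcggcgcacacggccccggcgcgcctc
The 250 bases before the inner GATA2 start, on the minus strand, held none of the letters searched and are printed without capitals.
GATA2 inner start, chr3:128488531-128488780: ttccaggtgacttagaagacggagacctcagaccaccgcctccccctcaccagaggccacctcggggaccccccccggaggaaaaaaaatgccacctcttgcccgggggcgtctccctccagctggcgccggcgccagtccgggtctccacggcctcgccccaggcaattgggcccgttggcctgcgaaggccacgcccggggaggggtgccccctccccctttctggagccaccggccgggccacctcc
A match describes the letters of a window and does not show that a factor binds there.

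Depth within peaks ranged from 630247 to 1199004 reads over the control libraries and from 938745 to 1719840 over the knockdown libraries. The 27 peaks held 0.123% to 0.137% of these reads in control and 0.133% to 0.144% in knockdown libraries. Values below are normalised read counts, which are raw counts divided by a size factor per library. The size factors centre the changes near 0, so a gain or loss of binding everywhere would not be seen. One library stood apart: control replicate 1 carried more signal at peaks overlapping a promoter window, relative to other peaks, than the other control libraries (1.12 against 0.65 to 0.78 on the log2 scale). Results that change without it are given with their value.

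Upon PU.1 knockdown, 11 of the 27 peaks passed the test for differential binding, of which 8 were gained and 3 were lost (DESeq2 with batch as a covariate, Benjamini-Hochberg adjusted p under 0.05 over all peaks and a fold change over 1.1). This share of 40.7% compares with 42% of all peaks. In the gained direction it was 29.6% against 21.3% of all peaks, and in the lost direction 11.1% against 20.7%. The median log2 fold change of the 27 peaks was 0.07, and that of all peaks was -0.025. Changes over 2-fold were found at 4 peaks, all of them gained (8.86% of all peaks were gained by more than 2-fold, 8.2% lost). In each batch separately, all knockdown libraries lay above all control libraries at 8 peaks (14.4% of all peaks) and below them at 2 peaks (13.9%). These were the gained peaks and the lost peaks other than the one at TAL1. Using edgeR, 12 of the 27 peaks were called (47.1% of all peaks), with 8 gained and 4 lost (24.1% and 22.9%). After each change was centred on the median of its 10 Mb window, 11 were called (40.8% of all peaks), with 9 gained and 2 lost (21.6% and 19.2%).

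The libraries of each batch were then tested alone. Of the 27 peaks, 22 changed in the same direction in both batches, where 80% of all peaks did. Batch 1 gave 2 calls, both gained (12% of all peaks were called, 5.38% gained and 6.61% lost), and batch 2 gave 10 calls, with 7 gained and 3 lost (25.8% of all peaks, 12.8% gained and 13.1% lost). No difference of the knockdown effect between batches passed the interaction test at the 27 peaks. DESeq2 and edgeR each called 0 peaks, and 0 of the 27 had an unadjusted p under 0.05 (2.51% of all peaks), the smallest being 0.0867 at a COPZ1 promoter peak near NFE2.

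**Figure D1:**
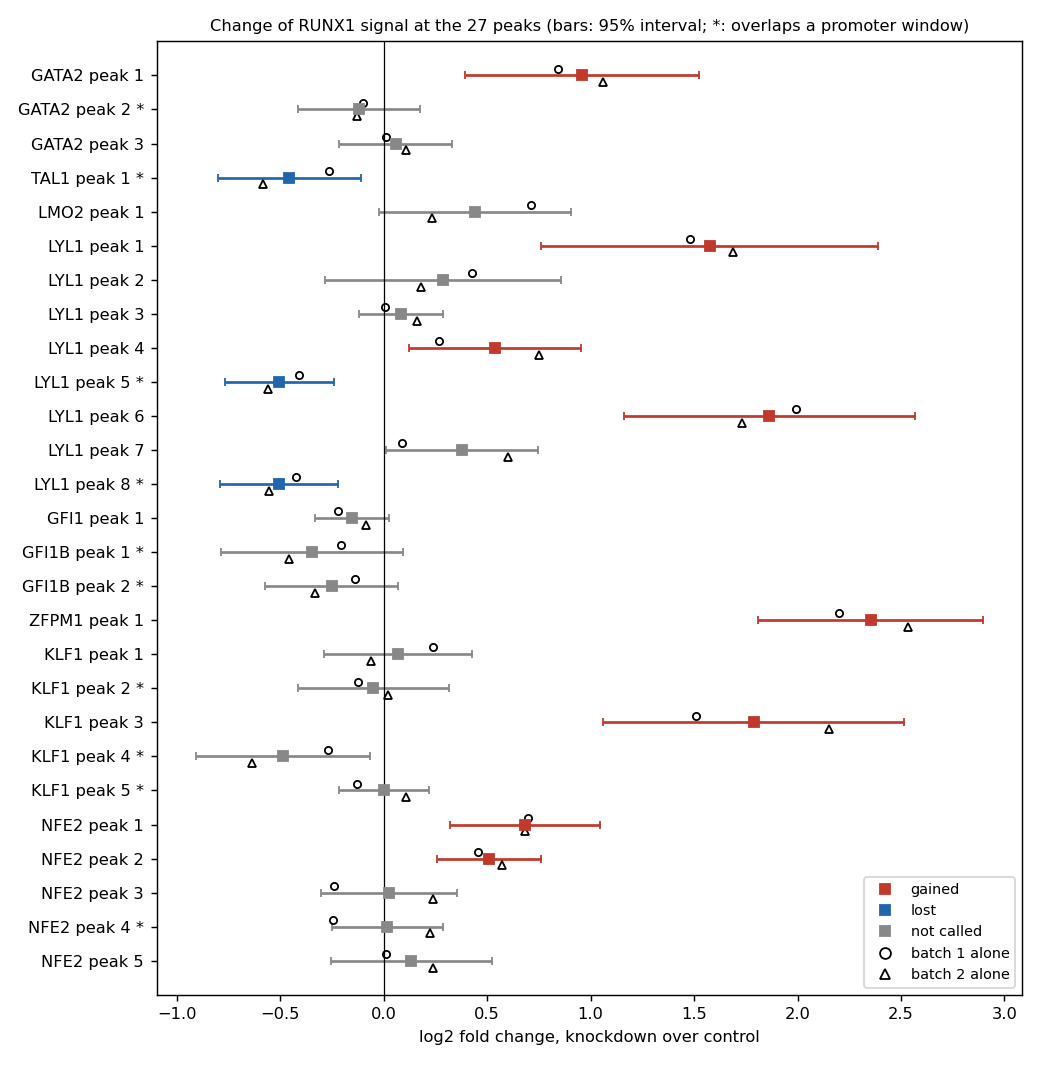
Log2 fold change of RUNX1 signal, knockdown over control, at each of the 27 peaks, numbered along the chromosome within each gene's window. Squares with bars are the fit over 12 libraries with its 95% interval, open circles and triangles the fits within batch 1 and batch 2, and asterisks mark peaks overlapping a promoter window. The 8 gained peaks have both batch values above 0 and the 3 lost peaks have both below 0.

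Among the 27 peaks, the 8 gained and 3 lost peaks differed in position, a difference that was not tested. A promoter window was overlapped by 37% of the 27 peaks, against 20.4% of all peaks. None of the 10 peaks that overlapped a promoter window of any gene was gained and 3 were lost, with a median log2 fold change of -0.30. Of the 17 peaks away from promoter windows, 8 were gained and 0 lost, with a median of 0.44. LMO2 and NFE2 had no promoter entry, so their peaks could not be classed at a promoter of their own gene, and the gained peak that covers an end of NFE2 is counted among the 17 for this reason. The same split over all peaks gave 4.01% gained and 18.1% lost at promoter windows, and 25.7% gained and 21.4% lost elsewhere. Over the gained peaks, the median width was 640 bp and the median count 9.74 in control and 30.6 in knockdown libraries. Over the lost peaks, the median width was 1655 bp and the median count 68.4 in control and 49.2 in knockdown libraries. The ranges overlapped: a gained peak near NFE2 had a control mean of 72.3, and the gained peak at the end of NFE2 was 1328 bp wide, while the lost TAL1 peak was 1303 bp wide. A region entered the count table when a peak was found in either condition on these same libraries, so a region that was weak in control cells could enter through the knockdown libraries. The control mean was under 15 counts at 6 of the 27 peaks, 5 of which were gained, where 60.1% of all 4043 peaks under that level were gained and 0.965% were lost. The 5 were the gained peaks near GATA2 and ZFPM1 and in NFIX, NACC1 and SYCE2. Their separation and p-values come from the same libraries that could have let these regions enter.

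Promoter signal also moved with the genotype as a whole. Relative to other peaks, the signal at promoter windows lay between 0.75 and 1.12 on the log2 scale in control and between 0.63 and 0.70 in knockdown libraries of batch 1. In batch 2 it lay between 0.65 and 0.69 in control and between 0.35 and 0.56 in knockdown libraries. The groups did not overlap in either batch, and the part of this shift in the losses at promoters was not tested. Without control replicate 1, 8 peaks were gained and 2 lost.

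**Figure D2:**
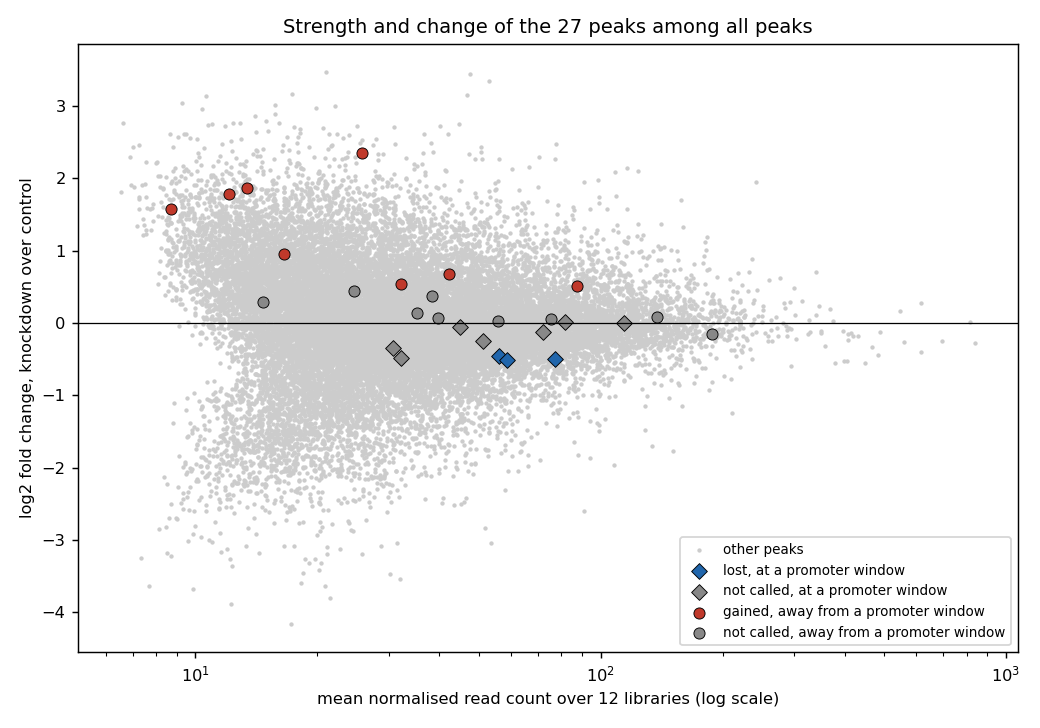
Mean normalised read count over 12 libraries (horizontal, log scale) against the log2 fold change of knockdown over control (vertical) for the 27 peaks and, in grey, the other peaks of the table. Diamonds overlap a promoter window and circles do not. Of the 4 peaks that rose most, the ZFPM1 peak has a mean count above 38.8% of all peaks. The others of the 4 lie further left, above 0.32% to 6.73% of all peaks. The 3 lost diamonds lie near -0.5.

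Among the GATA factors, GATA2 had 3 peaks, of which 1 was gained. The gained peak (chr3:128461184-128461792) lay 17630 bp from the 3' end of GATA2 and 645 bp from DNAJB8, its nearest gene. Its lowest, median and highest counts were 6.94, 9.34 and 17.9 in control and 17.1, 21.9 and 31.7 in knockdown libraries. The lowest knockdown library, of batch 1, lay below the highest control library, of batch 2, but within each batch all knockdown libraries were higher. The mean rose from 10.7 ± 3.82 to 22.4 ± 5.28 (SD, n = 6 each), a log2 fold change of 0.96 ± 0.29 (SE, DESeq2 adjusted p = 0.00327). Within batches the log2 fold change was 0.84 ± 0.58 and 1.06 ± 0.41.

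The peak at the inner start of GATA2 (chr3:128487194-128489515), which also covers the start of GATA2-AS1, had 61.1 to 93.6 counts in control (median 74.7) and 55.0 to 90.3 in knockdown libraries (median 62.6). The groups overlapped, and the log2 fold change of -0.12 had a 95% interval from -0.41 to 0.17. The upstream peak 29867 bp from the gene (chr3:128523068-128524849) was at a similar level, with 73.6 ± 8.07 and 76.9 ± 10.6, with an interval from -0.22 to 0.33. At GATA2, the gain was seen at the weak downstream peak, while neither of the strong peaks passed the test. The summed count over the 3 peaks was 160.0 ± 16.4 in control and 168.2 ± 17.96 in knockdown libraries.

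TAL1 had 1 peak (chr1:47231326-47232628), which covers both annotated starts and the sequences printed above, and it was lost. Control libraries had 31.1, 69.4 and 79.8 counts as lowest, median and highest, and knockdown libraries 41.0, 46.7 and 64.1. The groups overlapped, since 1 control library was lower than every knockdown library. The mean fell from 64.3 ± 18.7 to 48.1 ± 8.37, which is -0.46 ± 0.18 (SE) on the log2 scale, with an adjusted p of 0.0265 by DESeq2 and 0.0126 by edgeR. This call was close to the threshold: the adjusted p of DESeq2 was 0.0825 without control replicate 1 and 0.143 when each change was centred on the median of its 10 Mb window (-0.14 over 209 peaks).

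LMO2, the bridging factor, had 1 peak, inside the gene (chr11:33885167-33885864). Its counts were 12.9, 19.2 and 36.4 in control and 21.7, 29.0 and 30.9 in knockdown libraries, so that the groups overlapped. The log2 fold change was 0.44 ± 0.24 (95% interval -0.02 to 0.90) and was not called (DESeq2 adjusted p = 0.124). The 55 peaks of its 10 Mb window had a median of -0.30, and after centring on it the peak passed with 0.74 (adjusted p = 0.00651). It also passed without control replicate 4 (0.65, adjusted p = 0.0303).

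LYL1 lies in a gene-dense stretch of chromosome 19 and had 8 peaks, of which 3 were gained and 2 lost. The peak over the gene itself (chr19:13098880-13100830) was the strongest of them, with 112.7 to 161.1 counts in control and 129.5 to 152.5 in knockdown libraries, and was not called (log2 fold change 0.08, 95% interval -0.12 to 0.29). The gained peaks lay inside neighbouring genes. At the peak in NACC1 (chr19:13132416-13132965), which encodes a transcriptional regulator with a BTB domain, counts were 3.16, 6.18 and 8.67 in control and 11.9, 21.2 and 28.3 in knockdown libraries, with no overlap. The log2 fold change was 1.86 ± 0.36 (adjusted p = 1.95e-06 by DESeq2), and the peak was called in both batches (1.99 and 1.73).

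The peak in NFIX (chr19:13053763-13054285), the gene of a nuclear factor I family member, had 1.30, 4.41 and 6.51 counts in control and 11.9, 12.3 and 16.6 in knockdown libraries, again without overlap (log2 fold change 1.58 ± 0.42, DESeq2 adjusted p = 0.000703). At these counts few reads carry the change. The peak in TRMT1, a tRNA methyltransferase gene (chr19:13107719-13108679), lay closest to LYL1, 4861 bp upstream of it. Its counts were 13.7, 25.2 and 38.7 in control and 29.6, 41.2 and 44.6 in knockdown libraries, which overlapped across but not within batches. The log2 fold change of 0.54 ± 0.21 had a DESeq2 adjusted p of 0.0288, which became 0.149 with the replicate number as a block, at a log2 fold change of 0.56, and 0.241 without control replicate 6, where the log2 fold change was 0.33.

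Both lost peaks of the LYL1 window sat at promoters of other genes. The peak across the TRMT1 promoter window and NACC1 (chr19:13114384-13117489) had 83.2, 89.2 and 98.5 counts in control and 49.1, 65.5 and 74.6 in knockdown libraries. No libraries overlapped, and the log2 fold change was -0.50 ± 0.13 (DESeq2 adjusted p = 0.000734). The TRMT1 window held 1 PU.1 match, and no other promoter window under the 27 peaks held these letters. The peak across STX10, a membrane traffic gene, and IER2, an immediate early gene (chr19:13149097-13150751), went from 68.4 ± 6.06 to 49.2 ± 6.14 without overlap (-0.51 ± 0.15, DESeq2 adjusted p = 0.00205). With gains and losses in 1 window, the summed count of the 8 LYL1 peaks was 375.0 ± 17.3 in control and 387.7 ± 19.9 in knockdown libraries.

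**Figure D3:**
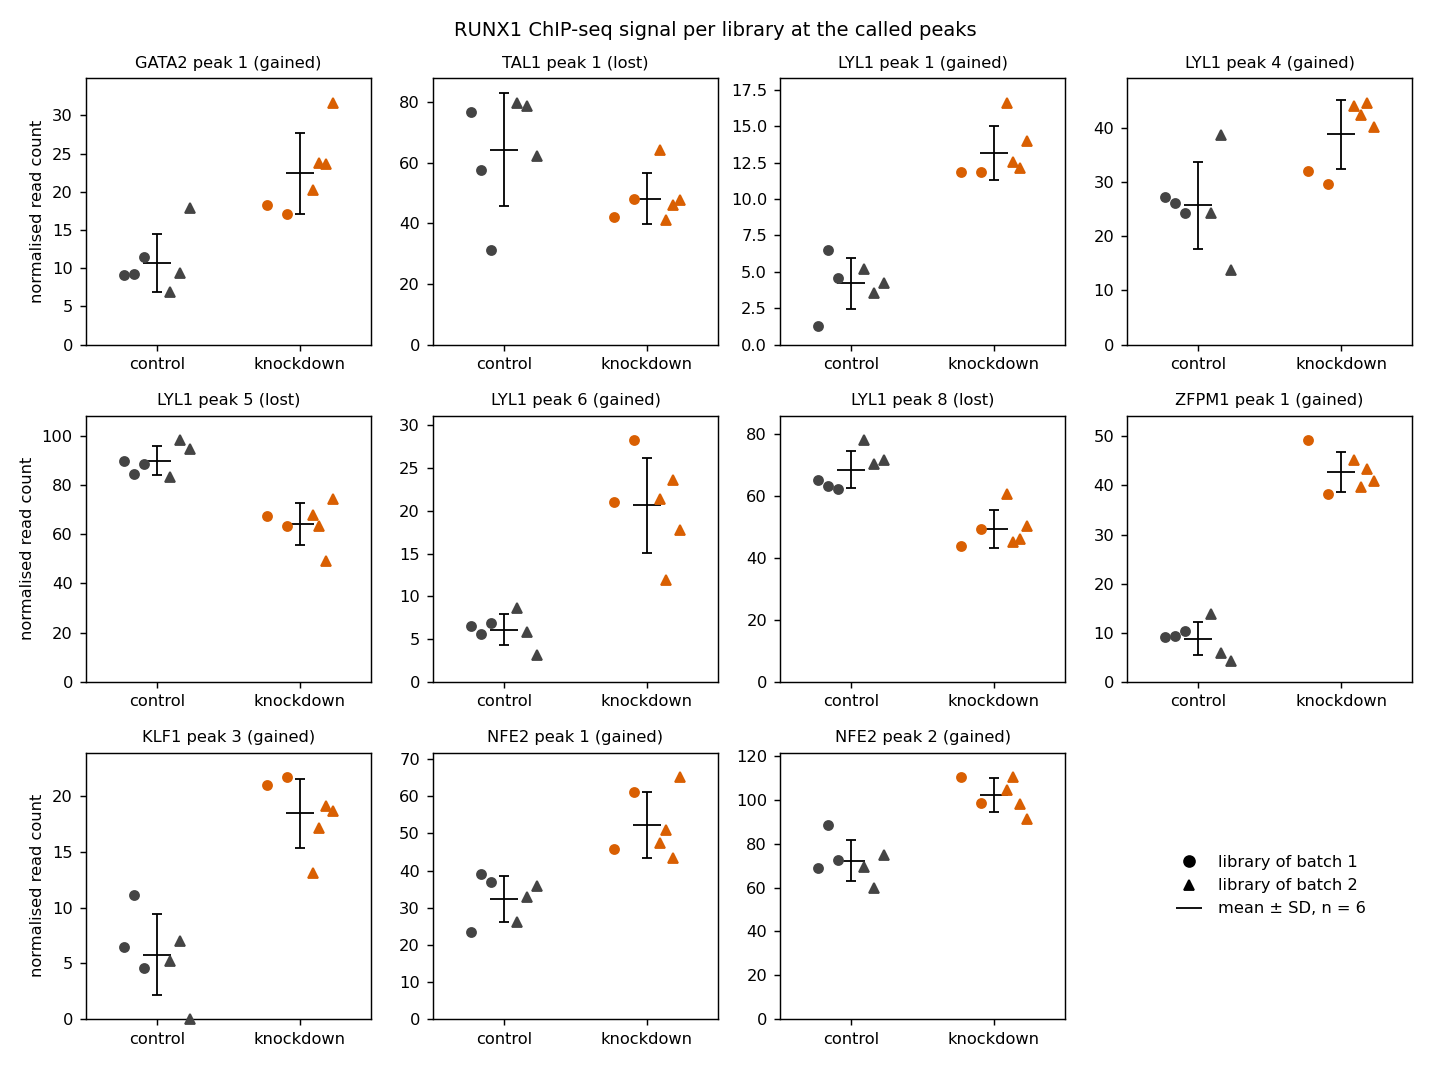
Normalised read counts per library at the 11 called peaks, control on the left and knockdown on the right of each panel, with circles for batch 1, triangles for batch 2 and bars for the mean and SD (n = 6 per group). At the ZFPM1 peak the control libraries lie between 4.21 and 13.9 and the knockdown libraries between 38.2 and 49.3, whereas at the TAL1 peak the groups overlap.

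The largest change was found at ZFPM1, the gene of the GATA1 cofactor. Its only peak (chr16:88439536-88440206) lay 11563 bp from the gene, inside the span of ZNF469, a zinc finger gene. Control libraries had 4.21, 9.20 and 13.9 counts and knockdown libraries 38.2, 42.2 and 49.3 as lowest, median and highest. The groups stood far apart, with the lowest knockdown library above the highest control library. With a control mean under 15 counts, however, this region could have entered the peak set through the same knockdown libraries. Of all peaks under that level, 60.1% were gained. The mean rose from 8.79 ± 3.41 to 42.8 ± 4.07, a fitted change of 5.11-fold (log2 2.35 ± 0.28, DESeq2 adjusted p = 1.76e-15). By adjusted p it ranked 145 among the 5666 gained peaks of the table. It was called in batch 1 (2.20 ± 0.48) and in batch 2 (2.53 ± 0.42).

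At the genes of the repressors GFI1 and GFI1B no peak was called. The GFI1 peak (chr1:92459617-92462420), 10623 bp beyond the gene's 3' end, was the strongest of the 27. It had 152.6, 201.5 and 218.1 counts in control and 169.0, 178.7 and 186.4 in knockdown libraries, which overlapped (log2 fold change -0.15, 95% interval -0.33 to 0.03). The peak at the start of GFI1B (chr9:132944303-132945269), which covers the promoter window of its neighbour TSC1, had a log2 fold change of -0.35 with an interval from -0.79 to 0.09. The further GFI1B peak, at the promoter of GTF3C5, had -0.25 (-0.57 to 0.07). All 3 values were below 0 and none passed the test, with DESeq2 adjusted p from 0.174 to 0.217.

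KLF1, the red cell activator, had 5 peaks, of which 1 was gained. The gained peak (chr19:12908425-12909000) lay 21224 bp upstream in SYCE2, a gene of the meiotic synaptonemal complex. Its counts were 0, 5.85 and 11.2 in control and 13.1, 18.9 and 21.7 in knockdown libraries, without overlap (log2 fold change 1.79 ± 0.37, adjusted p = 1.12e-05 by DESeq2). The peak nearest KLF1 (chr19:12890623-12891653), 3422 bp upstream at the GCDH promoter, had 45.2 ± 10.1 and 44.8 ± 10.2 counts and was not called (95% interval -0.42 to 0.31). The peak at the SYCE2 promoter lay just short of the threshold, with -0.49 ± 0.21 and a DESeq2 adjusted p of 0.0529 (edgeR 0.0290). The CALR promoter peak, at 49756 bp the most distant of the 27, had a log2 fold change of 0.00 with an interval from -0.22 to 0.22. Just outside the limit, peaks at 51290 bp and 54984 bp from KLF1 had log2 fold changes of -0.01 and 0.57.

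NFE2 had 5 peaks, and the pair next to the gene was gained. The peak at the end of the NFE2 span (chr12:54300725-54302052) had 23.4, 34.3 and 39.1 counts in control and 43.3, 49.2 and 65.2 in knockdown libraries. Its mean rose from 32.3 ± 6.30 to 52.3 ± 8.90, or by 0.68 ± 0.19 on the log2 scale (DESeq2 adjusted p = 0.00104). The stronger peak 2905 bp from the gene (chr12:54303920-54304905) had 59.8, 71.0 and 88.4 counts in control and 91.3, 101.6 and 110.5 in knockdown libraries, with a log2 fold change of 0.51 ± 0.13 (adjusted p = 0.000324 by DESeq2). At both peaks every knockdown library was higher than every control library. The other 3 peaks, 14021 to 26932 bp away toward and in COPZ1, a coatomer gene, had log2 fold changes from 0.02 to 0.13 and none was called. Over the 5 peaks the summed count rose from 272.7 ± 25.3 to 332.3 ± 20.2, a ratio of 1.22.

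**Figure D4:**
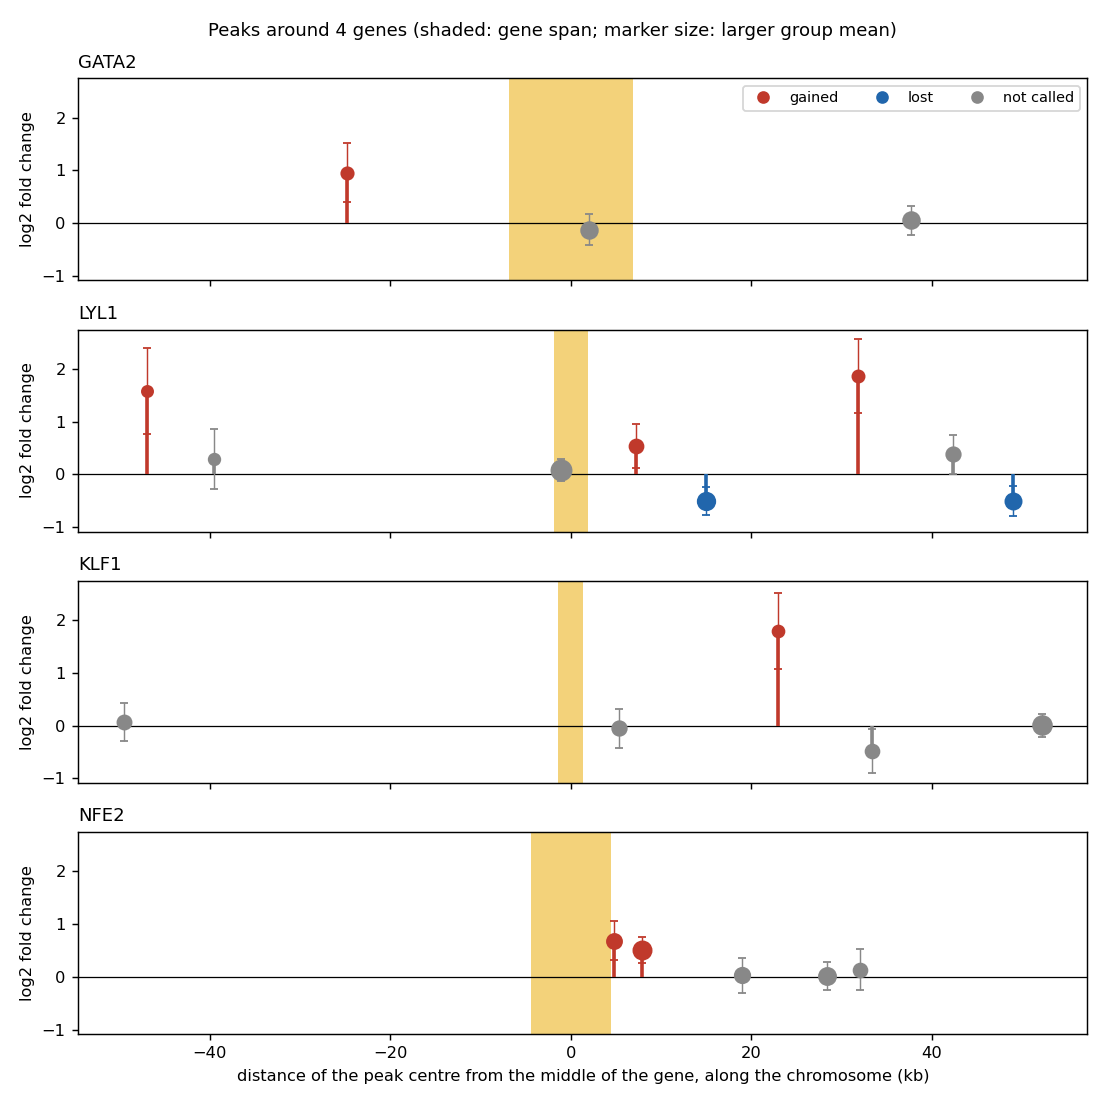
Log2 fold change with its 95% interval (vertical) for each peak around GATA2, LYL1, KLF1 and NFE2, against the distance of the peak centre from the middle of the gene along the chromosome in kb (horizontal). The shaded band is the gene span and the marker grows with the larger group mean. GATA2, LYL1 and KLF1 are read from right to left, so upstream peaks lie on the right. The gained peaks at NFE2 lie next to the gene, whereas the largest gains at LYL1 and KLF1 lie over 20 kb away.

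Gains were found next to NFE2 and next to genes outside the list. Of the 8 peaks whose nearest protein-coding gene was one of the 10, 2 were gained, both at NFE2, and 1 was lost. Over all peaks, 21.3% were gained and 20.7% lost. Among the 19 peaks nearer to another gene, 6 were gained and 2 lost. The windows of LYL1 and KLF1 are both on chromosome 19 and held 13 of the 27 peaks, with 4 gained (30.8%) and 2 lost (15.4%). The remaining 14 peaks had 4 gained (28.6%) and 1 lost (7.14%). Differences between these parts, or from all peaks, were not tested.

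Other genes of the same programmes were read out in the same way. Around 14 partner genes, which encode subunits and cofactors of these complexes such as LDB1, TCF3, KDM1A and RUNX1 itself, 76 peaks were found (median log2 fold change -0.01). Of these, 19 were gained and 15 lost, which is 25% and 19.7%, near the 21.3% and 20.7% of all peaks. The gained peak with the smallest adjusted p lay in GALNS near CBFA2T3, a corepressor gene (chr16:88839872-88841101), with 45.7 ± 2.61 counts in control and 125.1 ± 6.41 in knockdown libraries (log2 fold change 1.44 ± 0.13). The lost peak with the smallest adjusted p lay within TCF12, an E protein gene (chr15:56992676-56993398), and fell from 35.9 ± 8.90 to 9.40 ± 3.16 (-2.01 ± 0.26).

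Around 19 effector genes of red cells and platelets, such as globins, receptors and surface glycoproteins, 45 peaks were found at 15 genes, HBA1 and HBA2 sharing 1 peak. Of these, 2 were gained and 11 lost, which is 4.44% and 24.4% against 21.3% and 20.7% of all peaks (median -0.09). Near SLC4A1, the anion exchanger of red cells, a peak (chr17:44279360-44280254) rose from 75.3 ± 12.7 to 127.1 ± 14.4 (0.73 ± 0.12). Around 10 myeloid factors, with 30 peaks at 8 genes, 6 were gained and 7 lost (median -0.19). These are 20% and 23.3%, near the shares of all peaks. Near CEBPE, a factor of granulocyte maturation, a peak (chr14:23112584-23114337) rose from 28.7 ± 6.86 to 45.8 ± 5.30 (0.71 ± 0.19). Where 20.7% of all peaks were lost and 21.3% gained, 4 of the 9 peaks around SPI1, which encodes PU.1, were lost and 0 gained. The lost peak of the myeloid list with the smallest adjusted p was among them (chr11:47390876-47391526), with 48.0 ± 4.27 counts in control and 13.2 ± 2.74 in knockdown libraries (-1.87 ± 0.22). Within the gained direction, the share was thus 29.6% around the 10 stem and lineage factors, 25% around the partners, 20% around the myeloid factors and 4.44% around the effectors, given as a description since the lists were chosen with earlier results known.

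**Figure D5:**
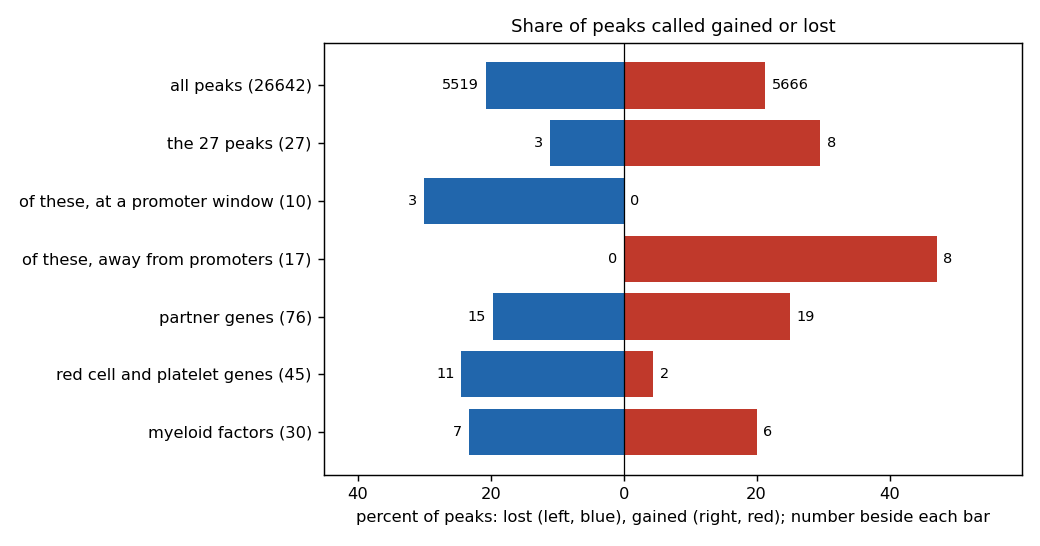
Percent of peaks called lost (left, blue) and gained (right, red) over all peaks, the 27 peaks, the 27 split by overlap with a promoter window, and the 3 other gene lists, with the number of peaks in parentheses and the number called beside each bar. The 10 promoter peaks have 0 gained and 3 lost, and the 17 others have 8 gained and 0 lost.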

How the data were processed

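RUNX1 ChIP-seq was analysed from 12 libraries of THP-1 cells. The 8 IgG libraries of the 20 samples were not analysed here. According to the methods of the study, reads were aligned by the authors with bowtie2, duplicate reads and non-primary chromosomes were removed, and macs2 peaks were called for each condition and batch. Peaks that recurred between batches were joined over both conditions and counted with featureCounts, and these deposited counts are raw, per peak and library. The deposited peak width (other) was used as a description.

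A mouse build is named in the methods and both GRCm38 and GRCh38 in the submitters' processing notes. Peak centres lay within 1 kb of a GRCh38.p14 promoter window centre for 21.5% of peaks, against 2.58% to 3.31% after shifting all peaks, and GRCh38 was used. No genome sequence was used.

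DESeq2 1.42.0 in R 4.3.3 was fitted on all 26642 peaks with batch and genotype, within each batch, and with their interaction. Adjusted p-values are Benjamini-Hochberg values over all peaks. The study describes the libraries as replicates of the cell line, each immunoprecipitated and prepared on its own. Within a group, separate clones or transductions are not described, so p-values measure the spread between such replicates. No library pair was a duplicate (chi-square per degree of freedom 1.29 to 2.24). Alternatives were edgeR 4.0.16, other size factors and filters, a replicate block, centring on 10 Mb windows, other distances and leaving out each library. The models were tested on simulated counts. Named peaks were all called peaks and, per gene, the peak nearest its start or, without a strand, an end. In the other lists these were the calls with the smallest adjusted p in each direction, not all of which are reported here. The members, lists and rules were chosen with earlier results of these data known.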

Additional observations from a re-analysis of the deposited data

Results flagged for a closer look

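In the 54 groups of 6 libraries (27 peaks in control and in knockdown), 4 libraries stood apart from the other 5 of their group by more than Dixon's 95% limit. About 1 group in 20 passes this limit by chance, which is 2.7 of 54. At the TAL1 peak, knockdown replicate 3 had 64.1 normalised counts, where the others had 41.0 to 48.1. The same library had 80.8 counts at the peak 14021 bp from NFE2 (43.5 to 56.8 in the others). At the LMO2 peak, knockdown replicate 5 had 21.7 counts, below the 28.0 to 30.9 of the others. At the GFI1 peak, control replicate 4, the library with the fewest in-peak reads, had 152.6 counts, below the 196.2 to 218.1 of the others. The cause was not tested.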

How the results depend on the processing

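The 11 calls (8 gained, 3 lost) were 12 with edgeR (8 and 4), 12 without the batch covariate (9 and 3), 11 after centring on 10 Mb windows (9 and 2) and 10 with a replicate block (7 and 3). The numbers do not pair the libraries: deviations of same-numbered libraries correlated by -0.064 to 0.014. TMM or total-count size factors and no independent filtering gave 11 calls each. Leaving out each library gave 9 to 13 calls (7 to 9 gained, 2 to 4 lost). Requiring 10 counts in every library left 21 of the 27 peaks and gave 5 calls, 3 of them gained. The filter took out the gained peaks near GATA2 and ZFPM1 and in NFIX, NACC1 and SYCE2, including every gain over 2-fold. These peaks have no value under this filter in the tally below, and the share of all peaks it called is not given. A fold change over 2 gave 4 calls (4 gained, 0 lost). A 10 kb distance held 9 peaks with 4 calls (3 gained, 1 lost). With a 100 kb distance, 17 of 52 peaks were called (13 gained, 4 lost). In the main fit, 42% of all peaks were called, 21.3% gained and 20.7% lost. In batch 1, 2 calls (2 gained) became 5 (5 gained) with edgeR and 0 to 1 when a library was left out. Without either knockdown library none remained in batch 1, where a single knockdown library was left and assumed to vary like the controls. In batch 2, leaving out a library gave 4 to 8 calls, 3 to 6 gained and 0 to 3 lost, lowest without control replicate 5, control replicate 6 or knockdown replicate 4. The 17 named peaks had 335 alternative values: 314 kept direction and call, 14 lost the call (9 at TAL1, 5 at the TRMT1 peak), 2 gained it (LMO2), and the peak nearest KLF1, never called, turned positive in 5 (0.017 with at least 10 counts, 0.096 with the replicate block, and without control replicate 3, control replicate 6 or knockdown replicate 2). Leaving out each library gave -0.162 to 0.0658 there. The cause was not tested. The median standard error over all peaks was 0.21 on the log2 scale, from 0.09 at the GFI1 peak to 0.42 at the NFIX peak among the 27, so the smallest change that could be called differed between peaks.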

Other observations

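Between 50 and 100 kb from the 10 genes lay a further 25 peaks, of which 5 were gained, 1 was lost and 19 were not called. Over all peaks, 21.3% were gained and 20.7% lost. The peak of these with the largest change, chosen after its values were seen, lay 93622 bp from GATA2 (chr3:128385292-128385800) and went from a mean of 2.68 to 15.5 normalised counts (log2 fold change 2.58 ± 0.50 SE, DESeq2 adjusted p = 1.88e-06). The lost peak lay 83419 bp from NFE2 (chr12:54384434-54385780) and went from 43.6 to 21.996 counts (-0.95 ± 0.23, DESeq2 adjusted p = 0.000255).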
